A study of Mus musculus with 12 samples.

Results

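The chemokine genes Ccl5, Ccl9, Ccl6, Ccl3 and Ccl4 lie side by side on mouse chromosome 11. Open chromatin around them was followed in macrophage lines carrying inducible Nur77 or a control protein, with and without endotoxin. The members are the regions within 50 kb of the span of any of these 5 genes that carried a peak in at least 2 of 12 ATAC-seq libraries. By this rule 33 of the 76042 regions of the series were members. They lay in a window of 238906 bp (mm10, chr11:83475778-83714683).

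ATAC-seq uses a transposase to tag accessible DNA, so a peak marks a stretch of open chromatin and not the output of a gene. The cells were RAW264.7, an established mouse macrophage line, as stable lines in which doxycycline turns on either Nur77, a nuclear receptor, or green fluorescent protein (GFP) as its control. All 4 groups received doxycycline at 1 µg/ml for 18 h. The groups were Nur77 cells given 500 ng/ml lipopolysaccharide (LPS, bacterial endotoxin) for 1 h, untreated Nur77 cells, GFP cells given LPS in the same way and untreated GFP cells, with 3 libraries each. Whether a line was 1 clone is not stated in the labels, and the transgenes' expression was not measured here. No group went without doxycycline, so Nur77 itself and other differences between the lines cannot be told apart. In bulk nuclei, a peak in more cells and a wider opening in each cell cannot be told apart.

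CC chemokines are small secreted proteins that draw leukocytes along a gradient by binding receptors on their surface. Ccl3 (MIP-1 alpha), Ccl4 (MIP-1 beta) and Ccl5 (RANTES) attract monocytes and T cells, and Ccl3 and Ccl5 bind the receptor Ccr1. Ccl6 and Ccl9 (MIP-1 gamma) are ligands of Ccr1 found in rodents. LPS signals through the receptor TLR4 to NF-kB and AP-1, and Ccl3, Ccl4 and Ccl5 are among the classic LPS-induced genes of macrophages.

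The 250 bases before the start are shown for the 3 of 5 member genes matched in the RefSeq promoter table (GRCm38.p6), because peaks covered them very differently. Each is on the minus strand and is printed 5′ to 3′, with the letters of the searched motifs in capitals. Ccl4 and Ccl5 are named only.

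Ccl9, chr11:83578637-83578886: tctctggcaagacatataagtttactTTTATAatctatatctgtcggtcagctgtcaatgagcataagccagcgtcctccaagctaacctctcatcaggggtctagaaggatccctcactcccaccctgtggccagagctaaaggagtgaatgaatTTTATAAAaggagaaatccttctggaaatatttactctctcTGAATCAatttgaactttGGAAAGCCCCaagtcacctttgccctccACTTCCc

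Ccl6, chr11:83593088-83593337: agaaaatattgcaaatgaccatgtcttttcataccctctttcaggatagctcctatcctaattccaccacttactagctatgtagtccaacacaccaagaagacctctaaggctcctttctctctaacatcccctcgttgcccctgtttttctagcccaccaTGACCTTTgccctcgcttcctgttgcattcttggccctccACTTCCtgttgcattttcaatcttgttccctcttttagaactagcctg

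Ccl3, chr11:83649379-83649628: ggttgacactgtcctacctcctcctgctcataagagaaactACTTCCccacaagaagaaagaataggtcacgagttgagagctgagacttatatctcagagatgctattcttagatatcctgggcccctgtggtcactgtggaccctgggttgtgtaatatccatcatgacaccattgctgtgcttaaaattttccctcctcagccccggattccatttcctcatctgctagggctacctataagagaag

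The 7 motifs searched on both strands were the TATA box (TATAAA), the AP-1 element (TGANTCA), the CRE (TGACGTCA), the NBRE bound by Nur77 as a monomer (AAAGGTCA), the STAT element (TTCNNNGAA), the ETS core (GGAAGT) and the kappa-B consensus. Positions count back from -1, the base before the start. The Ccl9 stretch held TATAAA from -92 to -87, TGAATCA from -53 to -47, and, on the other strand, a kappa-B consensus from -35 to -26 and an ETS core from -7 to -2. Its TATAAA also matched on the other strand from -94 to -89, overlapping the first match, and from -224 to -219. The Ccl6 stretch held, both on the other strand, the NBRE from -88 to -81 and an ETS core from -48 to -43. The Ccl3 stretch held an ETS core on the other strand from -209 to -204 and no other searched letters. Of 32851 promoters of this length, 12.4% held TATAAA, 6.75% AP-1, 1.55% CRE, 1.34% NBRE, 5% the kappa-B consensus, 7.02% STAT and 19.7% the ETS core. These are matches of letters and not bound sites. Peaks covered all 250 bases of the Ccl9 stretch and of the Ccl3 stretch in 12 of 12 libraries, and none of the Ccl6 stretch in any library.

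The lists held 59858, 44790 and 52895 peaks in LPS-treated Nur77 cells, 55656, 36184 and 55446 in untreated Nur77 cells, 48275, 56888 and 81467 in LPS-treated GFP cells, and 54515, 65014 and 65061 in untreated GFP cells, for replicates 1, 2 and 3. Replicate 2 of untreated Nur77 had the shortest list and replicate 3 of LPS-treated GFP the longest. The lists give no number of reads, so depth is unknown, and a missing call may be a peak below the authors' threshold. All 8 macrophage markers, among them Csf1r and Spi1, had a region at the gene in 12 of 12 libraries. Cd3e and Cd8a of T cells, Col1a2 of fibroblasts and Krt8 and Krt18 of epithelium had none, while 2 of 4 markers of T cells, of B cells and of fibroblasts and 0 of 4 of epithelium were called in every library. Since the labels do not say whether the 3 replicates of a group were grown apart, a p-value here covers only how these libraries vary, and part of that may be technical.

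More of the cluster lay under peaks with LPS than without it in both lines. Peaks covered 65046, 59897 and 50233 bp within 50 kb of the members in LPS-treated Nur77 cells, against 27745, 15678 and 30708 bp in untreated Nur77 cells. They covered 41283, 59277 and 69256 bp in LPS-treated GFP cells, against 25379, 25636 and 24580 bp in untreated GFP cells. In neither line did the treated and untreated libraries overlap.

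The same held when the covered length was taken as a share of all bases under peaks in the library, which allows for unequal lists. The share was 0.113%, 0.134% and 0.117% in LPS-treated Nur77 cells, against 0.0548%, 0.0461% and 0.0524% in untreated Nur77 cells. It was 0.104%, 0.116% and 0.0894% in LPS-treated GFP cells, against 0.0484%, 0.0459% and 0.0433% in untreated GFP cells. These shares are given as a description, without a test.

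**Figure D1:**
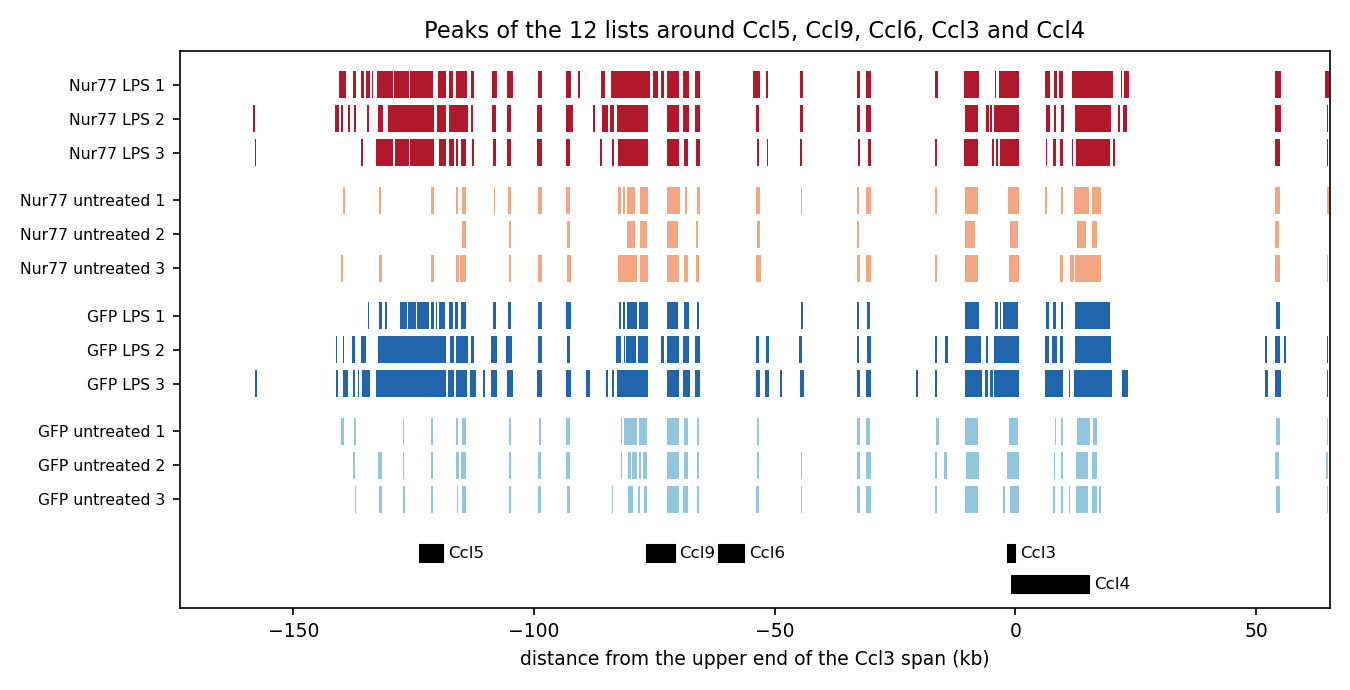
Peaks of each of the 12 lists (1 row per library, by group) over the window around the 5 genes, with distance from the upper end of the Ccl3 span in kb on the x axis. The block of peaks over Ccl5 and the widened block at Ccl4 are seen in the LPS libraries of both lines, and no library has a peak inside Ccl6.

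The genes differed in how much of their span lay under peaks. Ccl5 (chr11:83525778-83530518), the ligand also known as RANTES, differed most between treatments: 79.2%, 86.4% and 78.1% of its span was under peaks in LPS-treated Nur77 cells, against 10.5%, 0% and 12.3% in untreated Nur77 cells. In LPS-treated GFP cells the share was 70%, 100% and 100%, against 8.77%, 9.24% and 7.89% in untreated GFP cells. In both lines the LPS and untreated libraries were far apart.

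Ccl3 (chr11:83647843-83649378) was largely open before treatment. All of its span was under peaks in the 6 LPS libraries of both lines, against 92.6%, 75.8% and 80.5% in untreated Nur77 cells and 79.4%, 100% and 78.8% in untreated GFP cells. The GFP groups overlapped at 100%. Ccl4 (chr11:83648624-83664683), whose RefSeq span of 16060 bp takes in a predicted transcript and part of Ccl3, was covered to 47%, 36.9% and 35.9% in LPS-treated Nur77 cells, against 32.7%, 19.3% and 34.7% in untreated Nur77 cells. It was covered to 37.1%, 43.8% and 54% in LPS-treated GFP cells, against 27.5%, 27.5% and 30.3% in untreated GFP cells.

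Ccl9 (chr11:83572917-83578636) averaged 44.4 ± 21.0% in LPS-treated Nur77 cells and 31.1 ± 3.5% in untreated Nur77 cells (SD, n = 3 each), where the groups overlapped and replicate 1 of the LPS group stood at 68.6%. In LPS-treated GFP cells it averaged 36.3% and in untreated GFP cells 29.5%, with no overlap. Ccl6 (chr11:83587886-83593087) had 0 bases under peaks in all 12 libraries, although regions were called on both sides of it.

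**Figure D2:**
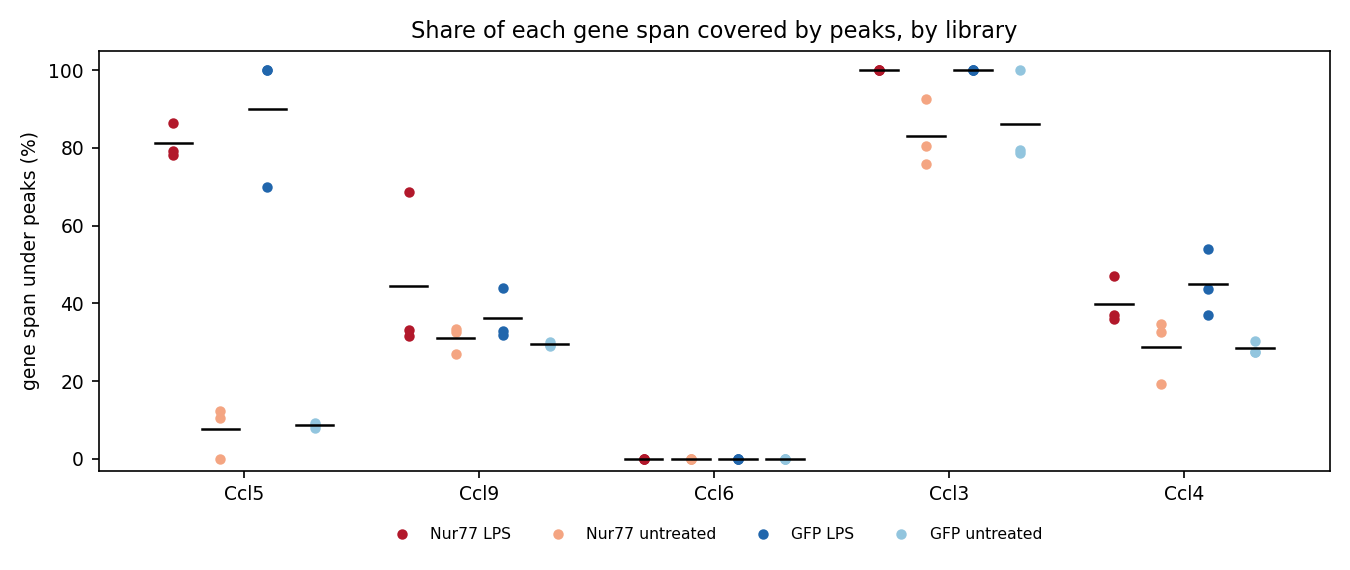
Percent of each member gene's span under peaks, 1 point per library, with bars at the group means, for Nur77 LPS, Nur77 untreated, GFP LPS and GFP untreated. Ccl5 separates LPS from untreated libraries most widely (70% or more against 12.3% or less), Ccl3 is at 100% in every LPS library and Ccl6 is at 0% in all 12.

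Of the 33 regions, 11 were called in all 12 libraries, and these can be compared by strength. Each was ranked by the authors' -log10 q among the 26378 regions called in all 12 libraries, as a percentile in which 100 is the strongest, and the percentiles were tested with limma and Benjamini-Hochberg adjustment over all of these regions at 0.05. A rank is relative, so a region can also move because others do. After LPS, 6 of 11 members rose and 0 fell in Nur77 cells, where 8.28% of all regions rose and 5.95% fell. In GFP cells the same 6 members rose and 0 fell, where 10.3% of all regions rose and 8.54% fell. The median difference of the members was 10.8 points in Nur77 cells, against -0.64 over all regions, and 12.8 points in GFP cells, against -1.04 over all regions.

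The largest rise was 1063 bp above the upper end of Ccl5 (chr11:83531581-83535740). Its percentile was 91.6, 91.8 and 91 in LPS-treated Nur77 cells, against 14.8, 28.7 and 23.4 in untreated Nur77 cells. The difference was 69.2 points (SE 5.06, adjusted p = 4e-07, limma). It was 88.2, 94.9 and 94.9 in LPS-treated GFP cells, against 18.4, 16.1 and 7.16 in untreated GFP cells, a difference of 78.8 points (SE 5.06, adjusted p = 1.3e-07, limma). Every LPS library was far above every untreated one in both lines.

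At Ccl4, the region over the upper part of its long RefSeq span and beyond it (chr11:83660452-83669559) ranked at 99.4, 99.8 and 99.3 in LPS-treated Nur77 cells, against 64.7, 60.6 and 65.9 in untreated Nur77 cells (difference 35.8 points, SE 2.26, adjusted p = 1.5e-07, limma). In LPS-treated GFP cells it ranked at 98, 98.1 and 99.4, against 62.1, 55.4 and 57.5 in untreated GFP cells (difference 40.2 points, SE 2.26, adjusted p = 4.7e-08, limma). With LPS it was among the strongest shared regions of every library.

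The region over the start of Ccl9 (chr11:83576930-83579624), which holds the promoter printed above, ranked at 83.1, 82.3 and 80.8 in LPS-treated Nur77 cells, against 60.6, 67.4 and 53.4 in untreated Nur77 cells (difference 21.6 points, SE 4.11, adjusted p = 0.0021, limma). It ranked at 70.8, 80.2 and 78.2 in LPS-treated GFP cells, against 55.9, 54 and 48.8 in untreated GFP cells (difference 23.5 points, SE 4.11, adjusted p = 0.00086, limma). The groups did not overlap in either line.

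No peak was called over Ccl6 itself, but a region 3958 bp below its span (chr11:83582820-83583928) ranked at 59.1, 61.6 and 55.3 in LPS-treated Nur77 cells, against 10.6, 9.85 and 10.1 in untreated Nur77 cells (difference 48.5 points, SE 7.59, adjusted p = 0.00044, limma). In LPS-treated GFP cells it ranked at 17.4, 60.6 and 46, against 0.817, 2.63 and 0.588 in untreated GFP cells (difference 40 points, SE 7.59, adjusted p = 0.0016, limma). Replicate 1 of the LPS-treated GFP group was well below its 2 partners and still above every untreated GFP library.

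A further region, 13114 bp above Ccl5 (chr11:83543632-83545038), averaged 44.6 ± 3.53 in LPS-treated Nur77 cells and 4.78 ± 4.45 in untreated Nur77 cells (SD, n = 3 each; limma difference 39.8 points, adjusted p = 1.8e-05). It averaged 30.5 ± 6.3 in LPS-treated GFP cells and 1.23 ± 1.08 in untreated GFP cells (SD, n = 3 each; limma difference 29.3 points, adjusted p = 0.00024). The region 5483 bp below Ccl3 (chr11:83638639-83642360) was strong throughout. It averaged 93.8 ± 0.948 in LPS-treated Nur77 cells and 84.7 ± 5.76 in untreated Nur77 cells (SD, n = 3 each; limma difference 9.13 points, adjusted p = 0.013). In GFP cells it averaged 93.7 ± 0.471 with LPS and 80.8 ± 3.27 untreated (SD, n = 3 each; limma difference 12.8 points, adjusted p = 0.00098). In Nur77 cells its difference was 6.51 points without untreated replicate 3 and 8.5 points without LPS replicate 2, and neither passed.

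The other 5 regions did not pass. The region over Ccl3 (chr11:83644160-83650198) already ranked between 94.5 and 99.1 in the untreated libraries of both lines, against 97.1 to 99.8 in the LPS libraries. Its limma difference was 2.52 points in Nur77 cells (95% interval 0.354 to 4.68, adjusted p = 0.12) and 1.91 points in GFP cells (-0.257 to 4.07, adjusted p = 0.22). Without replicate 2 of untreated Nur77, the difference in Nur77 cells was 3.24 points and passed. With all libraries, it also passed in Nur77 cells on the normal score of the rank (0.6 on that scale, adjusted p = 0.0076, limma). Percentiles this close to 100 leave little room for a rise. The region over the far end of Ccl9 and the pseudogene Ccl16-ps (chr11:83565275-83573533) differed by -7.72 points in Nur77 cells (95% interval -20.3 to 4.85) and by -4.94 points in GFP cells (-17.5 to 7.62). The rank of a region is that of its strongest peak, and a weaker chain of neighbouring summits inside this region did rise, as given below. The remaining 3, which lay 15496 bp from Ccl9, 23365 bp from Ccl6 and 38602 bp from Ccl4, had differences between -4.12 and 11.4 points.

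**Figure D3:**
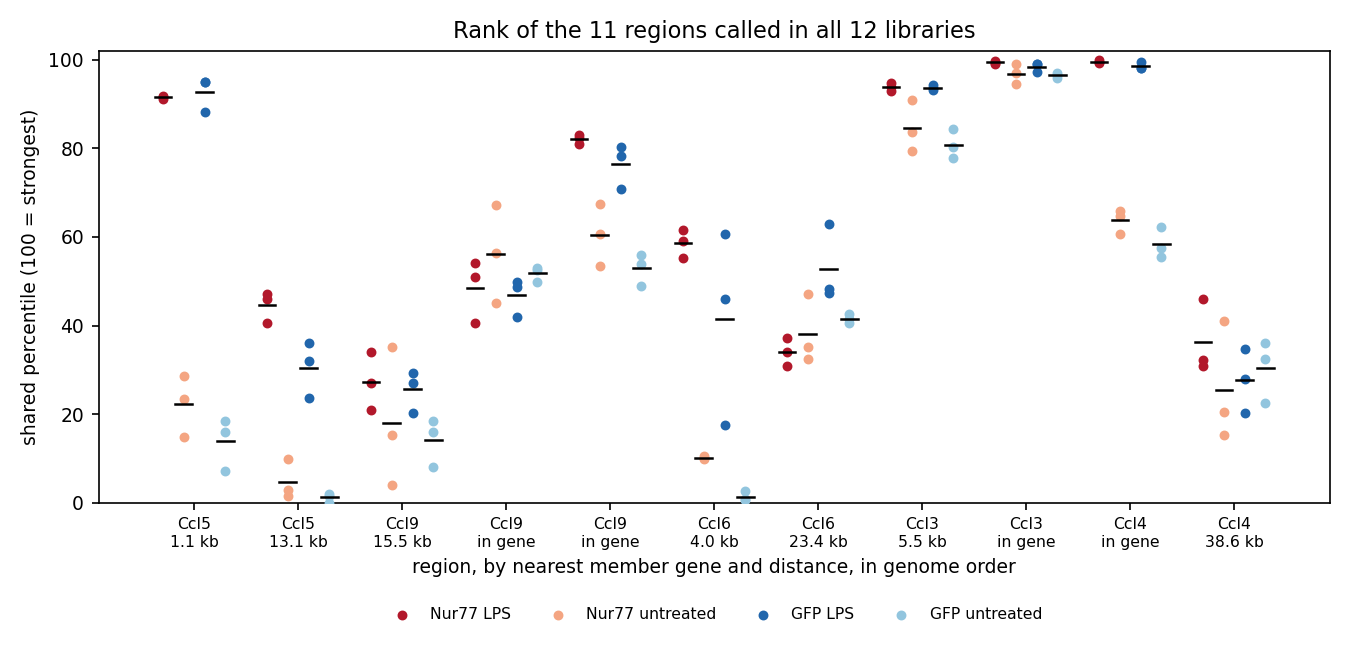
Shared percentile (100 is the strongest of 26378 regions) of the 11 member regions called in all 12 libraries, 1 point per library, with bars at the group means, labelled by nearest member gene and distance. The Ccl5 region at 1.1 kb and the Ccl4 region are above 88 in every LPS library and at 65.9 or below in every untreated one, while the Ccl3 gene region is above 94 in all 12.

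Among regions called in all 6 libraries of 1 line, ranked among these alone, 16 members could be compared in GFP cells and 10 rose after LPS and 0 fell (10.2% of all 34085 regions rose and 7.7% fell). In Nur77 cells 6 of 12 rose and 0 fell (6.73% of all 28777 rose and 4.17% fell). The larger set brought in the region over the whole Ccl5 gene (chr11:83516476-83531167), which ranked at 78.1, 77.7 and 68.9 in LPS-treated GFP cells, against 20.2, 33.8 and 29.9 in untreated GFP cells (difference 47 points, SE 5.83, adjusted p = 0.00033, limma). It also brought in a region 1705 bp above Ccl9 (chr11:83580341-83581710), at 88.7, 90.5 and 87.5 in LPS-treated GFP cells, against 18, 29 and 10.4 in untreated GFP cells (difference 69.7 points, SE 5.79, adjusted p = 4.1e-05, limma). Both were missing from replicate 2 of untreated Nur77, the shortest list, which kept them out of the fit over all libraries.

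The 2 other additions that rose were 19490 bp above Ccl5 (chr11:83550008-83551082) and inside the long Ccl4 span (chr11:83655459-83659441). Their limma differences were 28.1 points (adjusted p = 0.015) and 30.1 points (adjusted p = 0.008) in that order. A last addition, 25223 bp above Ccl6 (chr11:83618310-83619459), did not rise. It ranked at 0.911, 0.951 and 25.7 in LPS-treated GFP cells, against 26.7, 16.7 and 16.3 in untreated GFP cells (limma difference -10.7 points, adjusted p = 0.3).

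Whole regions were also compared by presence alone. A region was called gained when it had a peak in 3 of 3 libraries of one group and in 0 of 3 of the other. After LPS, 3 of 33 members were gained in Nur77 cells, against 1.94% of all regions, and 2 of 33 in GFP cells, against 1.96%. Leaving out a library loosens this rule, so a count can then only stay or rise. The Nur77 count was 5 without untreated replicate 1 or without LPS replicate 3, and 0 at a -log10 q of at least 5. The GFP count was 6 without LPS replicate 1, and also 6 where peaks had to cover at least 0.5 of the region. It was 4 with lists of equal length and 1 at a -log10 q of at least 5. Members lost after LPS numbered 0 in Nur77 cells, against 0.46% of all regions, and 0 in GFP cells, against 1.02%.

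The region gained in both lines lay 10470 bp below Ccl5, in Heatr9 (chr11:83513437-83515308), and was weak, between percentile 3.03 and 29.7 of the LPS lists that held it. The same pattern of 12 calls was shared by 432 regions of the series. A region 9961 bp above Ccl5 (chr11:83540479-83541727) was gained in GFP cells at percentiles 52.3, 68.1 and 75.6. In Nur77 cells it was present in all 3 LPS libraries and in 1 untreated library. The other 2 gained in Nur77 cells were 5513 bp above Ccl5 (chr11:83536031-83537247) and 8189 bp below Ccl9 (chr11:83563175-83564728), each also found in 2 and 1 of the LPS-treated GFP libraries in that order. The calls at these 2 regions, and those at the Heatr9 region in both lines, did not hold with lists of equal length, at the stricter q or where peaks had to cover at least 0.5 of the region.

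With both lines together, 6 LPS libraries were set against 6 untreated ones in a two-sided Fisher's exact test over the 49664 regions called in 1 to 11 libraries. No region of the series passed after Benjamini-Hochberg adjustment, the smallest adjusted p being 0.229 and the smallest unadjusted exact p 0.00216. That p is the lowest this test can give with 6 against 6 libraries, so the lack of a pass does not show a lack of difference. At an unadjusted p under 0.05, 3 of 22 members were called more often with LPS, against 2.27% of all regions, and 0 less often, against 0.604%.

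Merging joins neighbouring peaks into wide regions, 14692 bp at Ccl5, so the summits in the lists were also followed one by one. Summits of all lists within 150 bp of each other were chained into sites, and 103 sites in at least 2 lists lay near the members, of 105888 in all. This unit was chosen after the regions had been seen. Of the 103 sites, 46 (44.7%) had a summit in LPS libraries only, against 9.71% of all sites, and 2 had one in untreated libraries only, against 6.18%. Many of the 46, and of the sites gained after LPS in Nur77 cells, lie in the single wide region at Ccl5. Sites in 1 region are not independent, so these counts do not describe the cluster evenly. After LPS, 14 sites were gained in Nur77 cells, against 1.89% of all sites, and 11 in GFP cells, against 1.79%. Without replicate 3 of LPS-treated Nur77 the first count was 24, and without replicate 1 of LPS-treated GFP the second was 24. A library left out loosens the rule, so these counts could only stay or rise. Sites lost after LPS numbered 0 in Nur77 cells, against 0.46%, and 0 in GFP cells, against 1.13%.

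Gained in both lines were 5 sites, against 0.515% of all sites. The strongest sat on the upper end of the Ccl5 span (chr11:83530469-83530596), which is where transcription of this minus-strand gene begins. Its summit stood at percentiles 89.3, 90.4 and 86.6 of the LPS-treated Nur77 lists and 85.2, 87.8 and 88.6 of the LPS-treated GFP lists. The site was under a peak in 6 of 6 LPS libraries and in 0 of 6 untreated libraries.

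The other 4 were chr11:83523835-83524093 and chr11:83525482-83525689 at the far end of Ccl5, chr11:83532314-83532406 at 1796 bp above it, and chr11:83668248-83668550 at 3565 bp above Ccl4. Their percentiles ran from 19.4 to 74 in the LPS lists. One site inside Ccl5 (chr11:83528132-83528179) was open before treatment, with a summit in all 3 untreated GFP libraries and 2 of 3 untreated Nur77 libraries as well as in all 6 LPS libraries.

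**Figure D4:**
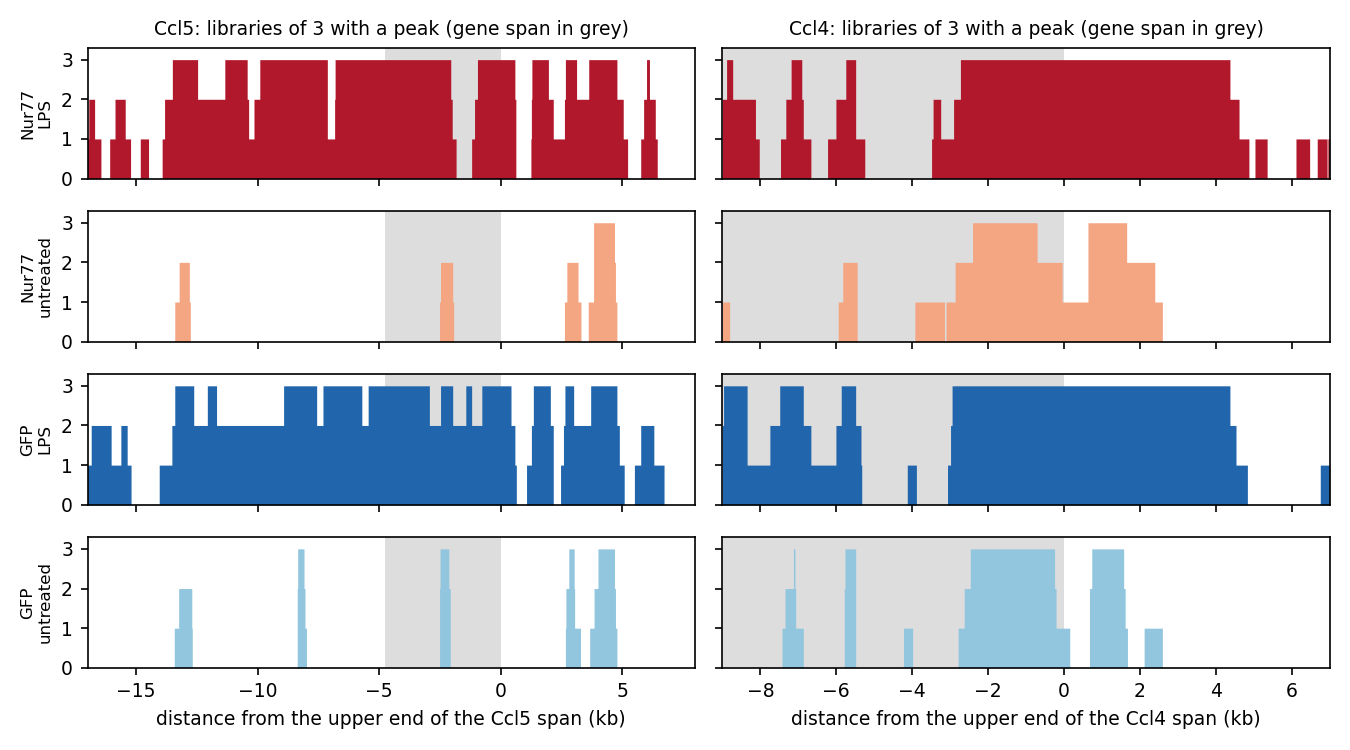
Number of libraries of 3 with a peak at each position around Ccl5 (left) and Ccl4 (right), by group, with distance from the upper end of the gene span in kb and the gene span in grey. At the upper end of Ccl5 the count is 3 of 3 in both LPS groups and 0 of 3 in both untreated groups, whereas Ccl4 has peaks in all groups and wider ones with LPS. The upper end of the Ccl4 span need not be a start.

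Of the 13 sites with a summit in all 12 libraries, 7 rose after LPS in Nur77 cells, against 8.23% of all 28861 such sites, and 7 in GFP cells, against 10.2%. The site inside the long Ccl4 span (chr11:83662576-83662717) rose by 34.9 points in Nur77 cells (SE 2.25, adjusted p = 2.5e-07, limma) and by 39.8 points in GFP cells (SE 2.25, adjusted p = 1.1e-07, limma). Ccl4 was not matched in the promoter table, so whether this site lies at its start is not told here. The site at 4313 bp above Ccl5 (chr11:83534831-83535080) carried the rise of its region, with 70.4 points in Nur77 cells and 80.2 points in GFP cells (limma adjusted p = 6.1e-07 and 1.7e-07 in that order). At the Ccl3 start (chr11:83649363-83649586) the difference was 2.32 points in Nur77 cells (adjusted p = 0.13, limma) and 1.76 points in GFP cells (adjusted p = 0.23, limma). Without replicate 2 of untreated Nur77 the first of these was 2.97 points and passed. The site 2977 bp below Ccl9 (chr11:83568969-83569940) rose by 35 points in Nur77 cells (SE 5.19, adjusted p = 0.00033, limma). In GFP cells it rose by 20.9 points (SE 5.19, adjusted p = 0.011, limma). It lies in the region over the far end of Ccl9, whose rank followed a stronger summit and did not rise. The site is a chain of summits 972 bp wide, ranked by the strongest summit in each library. Libraries may therefore be compared at different summits, which was not tested.

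Within Ccl9, 1 of 2 sites shared by all libraries rose. The site 87 bp inside its start (chr11:83578340-83578549) rose by 21.9 points in Nur77 cells (SE 4.82, adjusted p = 0.0063, limma) and by 41.3 points in GFP cells (SE 4.82, adjusted p = 3.1e-05, limma). The site 1286 bp inside the start (chr11:83577237-83577350) differed by -15 points in Nur77 cells (95% interval -31.6 to 1.53) and by -9.41 points in GFP cells (-26 to 7.15), and did not pass in either. The 2 sites lie in the same merged region. In untreated GFP cells the rank of that region followed the inner site, at 56.1, 54.5 and 49.2, against 42.2, 37 and 29 at the start site. With LPS it followed the start site, so the GFP difference of the region compares different summits.

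In the fit over all libraries, no member region differed past the threshold between Nur77 and GFP cells. Compared with GFP cells in the same treatment, 0 of 11 members were higher or lower past the threshold after LPS, where 3.13% of all regions were higher and 5.47% lower. Untreated, 0 of 11 were higher or lower, where 2.92% of all regions were higher and 4.91% lower. At an unadjusted limma p under 0.05, 3 of 11 differed after LPS, where 23.1% of all regions did, and 1 of 11 untreated, where 21.2% did.

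The intervals are in points of rank, on a scale that ends at 100. After LPS the Ccl4 region averaged 99.5 in Nur77 cells and 98.5 in GFP cells, and the Ccl3 region 99.4 and 98.4. Little room was left there for a rise, so their narrow intervals do not bound a difference in signal. For the Ccl4 region the difference between Nur77 and GFP cells after LPS was 0.963 points (95% interval -3.83 to 5.75), and for the Ccl3 region 0.964 points (-1.2 to 3.13). For the region at 1063 bp above Ccl5 it was -1.17 points, with a wider interval (-11.9 to 9.57). Closest to the threshold were 2 regions whose groups did not overlap. The region 23365 bp above Ccl6 (chr11:83616452-83617077) averaged 34 ± 3.2 in LPS-treated Nur77 cells and 52.8 ± 8.73 in LPS-treated GFP cells (SD, n = 3 each; limma difference -18.8 points, 95% interval -30.8 to -6.72, adjusted p = 0.052). For the region 13114 bp above Ccl5 the limma difference was 14.1 points (4.81 to 23.4, adjusted p = 0.057), and for the region 3958 bp below Ccl6 it was 17.3 points (1.19 to 33.4, adjusted p = 0.18).

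The change with LPS itself was compared between the lines as an interaction, and 0 of 11 members passed in either direction, where 0.0152% of all regions were higher and 0.00379% lower. The interaction was -4.45 points for the Ccl4 region (95% interval -11.2 to 2.32) and -9.6 points for the region above Ccl5 (-24.8 to 5.59). The value for Ccl4 is limited by the top of the scale, which that region neared after LPS in both lines. At an unadjusted limma p under 0.05 the count was also 0, where 8.25% of all regions passed.

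**Figure D5:**
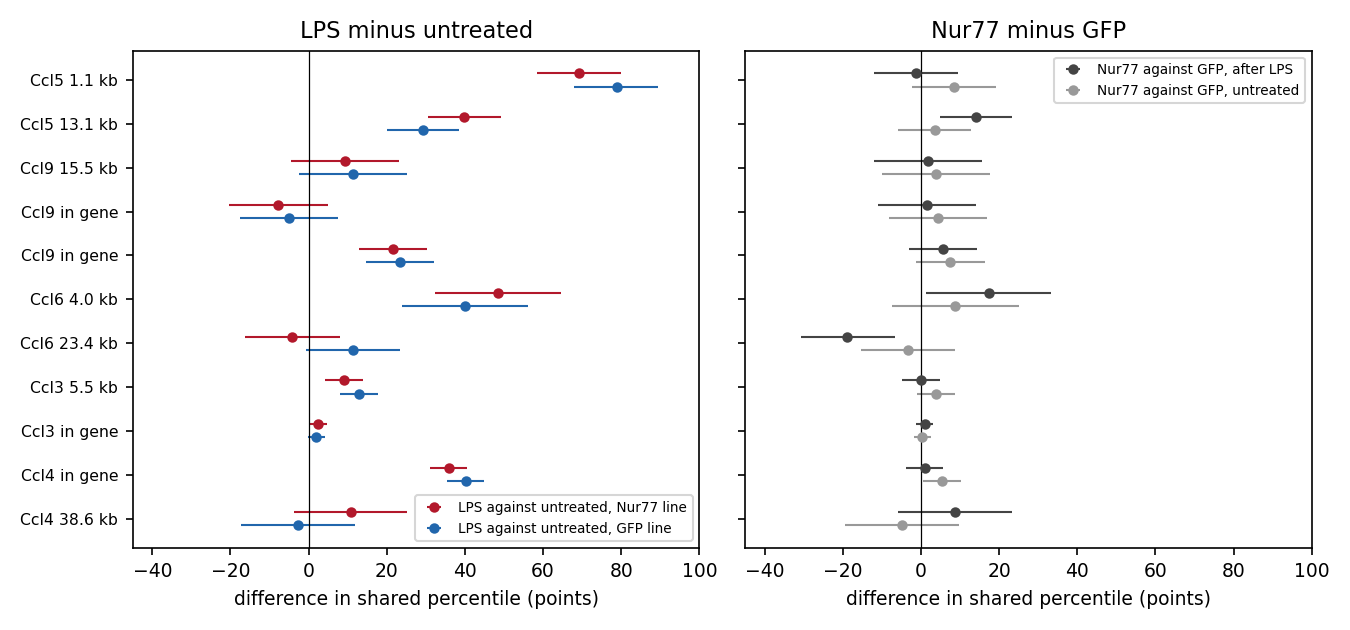
Differences in shared percentile (points, limma, with 95% intervals) for the 11 member regions, with LPS minus untreated in each line on the left and Nur77 minus GFP in each treatment on the right. The Ccl5 region at 1.1 kb and the Ccl4 region lie far to the right of 0 in both lines on the left, and no difference on the right passed the adjusted threshold.

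By presence, 0 members were gained in Nur77 cells relative to GFP cells after LPS, against 0.304% of all regions, and 0 were lost, against 2.18%. Untreated, 0 were gained, against 0.308%, and 1 was lost, against 3.4%, a share near that of the members. The lost one, 13318 bp below Ccl5 in Heatr9 (chr11:83511686-83512460), was among the weakest, at percentiles 2.08, 2.26 and 1.97 of the untreated GFP lists, and its call did not hold under the same 3 settings. It was present again in 2 of 3 LPS-treated Nur77 libraries and in 2 of 3 LPS-treated GFP libraries. In Fisher's exact test over 6 Nur77 and 6 GFP libraries no region of the series passed after adjustment (smallest adjusted p 0.226), with the same lower limit on p. At an unadjusted p under 0.05, 0 of 22 members were called more often in Nur77 cells, against 0.266% of all regions, and 0 less often, against 2.99%.

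At the level of summit sites, 2 differences between the lines passed. The site at the Ccl9 start was higher in untreated Nur77 cells, at a mean of 61.1 ± 7.35, than in untreated GFP cells, at 36 ± 6.65 (SD, n = 3 each; limma difference 25.1 points, adjusted p = 0.0048). After LPS its difference was 5.69 points (adjusted p = 0.54, limma), and its interaction of -19.4 points did not pass (adjusted p = 0.49). A site 2977 bp below Ccl9 (chr11:83568969-83569940) was higher in Nur77 cells after LPS, at 42.2 ± 8.59, than in GFP cells after LPS, at 23 ± 5.64 (SD, n = 3 each; limma difference 19.3 points, adjusted p = 0.032). This site is the chain of summits 972 bp wide, so the lines may be compared at different summits.

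The call of the second difference did not hold when any 1 of 4 libraries was left out, while its size stayed between 14.5 and 22.7 points over all leave-outs. It was 18.4 points without LPS-treated GFP replicate 2, 16.9 without replicate 3 of that group, 20.6 without LPS-treated Nur77 replicate 1 and 14.5 without replicate 2 of that group, and passed in none of these. Each count stood at 1 of 13 sites higher and 0 lower. The background was 2.82% higher and 4.87% lower of all sites when untreated, and 2.88% higher and 5.1% lower after LPS. For the interaction 0 of 13 sites passed, where 0.00693% of all sites were higher and 0.00346% lower.

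Sites lost in Nur77 cells relative to GFP cells numbered 1 after LPS, against 1.78% of all sites, and 3 untreated, against 2.96%. None was gained, where 0.33% of all sites were gained after LPS and 0.3% untreated. The site lost after LPS lay 6394 bp below Ccl3 (chr11:83641295-83641449), with summits at percentiles 65.7, 75.5 and 87.9 in LPS-treated GFP cells and none in LPS-treated Nur77 cells, although a peak covered the position in all 3 of those. The 3 lost untreated were in the Heatr9 region named above, 3302 bp below Ccl5 (chr11:83522205-83522476) and inside the long Ccl4 span (chr11:83657320-83657737), and the last 2 had summits in all 3 LPS-treated Nur77 libraries.

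Ranked over the 6 LPS libraries alone, 19 members could be compared between the lines. One was higher in Nur77 cells (2.63% of all 32220 regions), the region 11366 bp above Ccl6 (chr11:83604453-83605404), at 23.8, 36.8 and 26.3 in Nur77 cells, against 8.02, 5.59 and 11.8 in GFP cells (difference 20.5 points, SE 5.12, adjusted p = 0.03, limma). One was lower (5.87% of all), the region 1705 bp above Ccl9, at 79.3, 83.4 and 83.1 in Nur77 cells, against 88, 89.9 and 86.8 in GFP cells (difference -6.28 points, SE 1.77, adjusted p = 0.05 after rounding, just under the threshold). Over the 6 untreated libraries 0 of 12 members were higher, where 1.93% of all were, and 0 lower, where 3.51% were.

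The 11 member regions not named above were called in 2 to 11 libraries, with mean list percentiles between 4.72 and 45.9. Among them, a fragment inside Ccl9 (chr11:83575673-83576469) was called in 1 library of each LPS group and in no untreated one. The member nearest the 50 kb limit lay 49064 bp from Ccl4, and the nearest region outside it, 51549 bp from Ccl5, was called in 12 of 12 libraries. Before the rule of 2 lists, 46 regions lay in the window.

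Other genes of the CC chemokine system, 7 receptor genes and 11 ligand genes, were followed in the same way. The receptor list also holds genes whose main ligands are not the members, such as Ccr2, the receptor of Ccl2. Near 7 receptor genes lay 54 regions, of which 2 were gained after LPS in Nur77 cells, against 1.94% of all regions, and 2 in GFP cells, against 1.96%. Of 13 shared regions 3 rose in Nur77 cells, against 8.28% of all, and 2 in GFP cells, against 10.3%, and 0 fell in either. Ccrl2, an atypical receptor that binds chemerin and is not known to signal, held the strongest: the region at its gene (chr9:111055543-111060063) ranked at 90.6, 93.6 and 89.3 in LPS-treated Nur77 cells, against 42.6, 38.7 and 42.1 in untreated Nur77 cells (limma difference 50 points, adjusted p = 5.4e-08). It ranked at 91.8, 94.6 and 93.5 in LPS-treated GFP cells, against 72.4, 68.5 and 68.7 in untreated GFP cells (limma difference 23.4 points, adjusted p = 2.3e-05).

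Near 11 other CC ligand genes lay 70 regions, of which 3 were gained after LPS in Nur77 cells, against 1.94% of all regions, and 4 in GFP cells, against 1.96%. Of 23 shared regions 5 rose in Nur77 cells, against 8.28% of all, and 3 in GFP cells, against 10.3%, and 0 fell in either. Between the lines, 1 was higher and 3 lower in Nur77 cells after LPS, where 3.13% of all regions were higher and 5.47% lower. Untreated, 1 was higher and 5 lower, where 2.92% of all were higher and 4.91% lower. The region at Ccl2, a monocyte attractant gene further along chromosome 11 (chr11:82034659-82037155), averaged 46.2 ± 2.59 in LPS-treated Nur77 cells and 81.1 ± 4.61 in LPS-treated GFP cells (SD, n = 3 each; limma difference -35 points, adjusted p = 7.8e-05). Untreated, it averaged 49.4 ± 2.36 in Nur77 cells and 75.6 ± 0.371 in GFP cells (SD, n = 3 each; limma difference -26.3 points, adjusted p = 0.00069). Among the 13 shared regions near receptors, with the same shares over all regions, 1 was higher and 1 lower in Nur77 cells after LPS, and 1 higher and 2 lower untreated, with the higher one 21121 bp from Ccr2 in both treatments (limma differences 35.3 points after LPS and 30.9 points untreated, adjusted p = 0.0019 and 0.0045 in that order).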

How the data were processed

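ATAC-seq peak lists of 12 libraries, 3 in each of 4 groups named by the labels, were analysed. Each library was given as 1 narrowPeak list. The tools named in the submitters' processing notes are cutadapt 2.6 and DiffBind 3.0.15, and the build is mm10. The aligner and the program that called peaks were not given in the sources used here. From the names in the deposited lists, reads had a mapping quality of at least 20, mitochondrial and duplicate reads had been taken out, and peaks passed a q value of 0.001. Each deposited peak carries the authors' score, a whole number. Its fold enrichment, also deposited, is a ratio. Of the authors' significance values, -log10 p and -log10 q are given for every peak. These served only to rank or filter peaks within a list.

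Peaks were merged across lists with bedtools 2.31.1, and regions in at least 2 lists were kept. A region counted as called in a library whose peaks overlapped it by at least 1 bp. Percentiles of regions called in all 12 libraries were fitted with limma 3.58.1 (R 4.3.3; 4 group means, empirical Bayes with trend), with Benjamini-Hochberg adjustment over all regions. Fisher's exact test used scipy 1.17.1. The region and site steps were tested on simulated data. Distances are to RefSeq gene spans of the same build, which carry no strand. Above and below mean toward higher and lower coordinates. The regions described are those at a member gene, those gained, lost or past a threshold, and the strongest; sites were added afterwards. Members, gene lists and markers were chosen with earlier results of these data known. Same-numbered replicates were not treated as pairs.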

Additional observations from a re-analysis of the deposited data

Results flagged for a closer look

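The change with LPS at the Ccrl2 gene region differed between the lines. It was 26.6 points larger in Nur77 cells than in GFP cells (SE 3.83, adjusted p = 0.023, limma interaction over 26378 regions). The region was 28.7 points lower in untreated Nur77 cells than in untreated GFP cells by the same fit, given as a difference of -28.7 (SE 2.71, adjusted p = 1.5e-05, limma).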

How the results depend on the processing

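By rank, the number of member regions past the threshold was unchanged or within 1.5 times under the replicate block, ranking by fold and lists of equal length, except for 1 lower in Nur77 cells after LPS with lists of equal length. The replicate block gave 6, 6, 0, 0 and 0 member regions higher for LPS in GFP cells, LPS in Nur77 cells, the 2 comparisons of the lines and the interaction, as without it. Same-numbered libraries correlated between -0.18 and 0.16 and differently numbered ones between -0.16 and 0.24, and 5 of 12 correlated best with their own number, so numbers were not taken as pairs. On the normal score of the rank, the region over Ccl3 passed for LPS in Nur77 cells. On the same score, 1 region was higher in Nur77 than in GFP cells in each treatment. Over the 6 libraries alone the GFP count after LPS was 10 and the lines differed at 1 higher and 1 lower. The cause was not tested.

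Calls of whole regions moved with the call rule. Gained after LPS were 4 in GFP cells with lists of equal length, 1 at a -log10 q of at least 5 and 6 where peaks covered at least 0.5 of the region, and in Nur77 cells 0 and 5 under the last 2. Lists of equal length gave 1 region gained in Nur77 cells in each treatment and 1 lost after LPS in GFP cells, and these 3 settings left 0 lost untreated. Within 100 kb there were 51 regions. For summit sites, lists of equal length gave 2 gained in Nur77 cells after LPS, 1 gained untreated and 0 lost untreated, and chaining at 100 bp gave 1 gained and 1 lost untreated.

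With a library left out, a gain or loss requires fewer calls. Counts of gained or lost regions and sites can then only stay or rise, so their lower ends are no check of stability. Leaving out each library in turn, gained regions ranged from 2 to 6 for LPS in GFP cells (6 without LPS-treated GFP replicate 1). In Nur77 cells they ranged from 3 to 5 (5 without untreated replicate 1 or LPS replicate 3). Regions gained or lost between the lines after LPS ranged from 0 to 1. Regions higher by rank ranged from 6 to 10 in GFP cells and 5 to 11 in Nur77 cells, the highest without untreated Nur77 replicate 2, when more regions are shared by all libraries, and higher or lower ones between the lines after LPS from 0 to 1. Gained sites ranged from 11 to 24 in GFP cells and 14 to 24 in Nur77 cells, from 0 to 2 between the lines after LPS and 0 to 1 untreated. Lost sites ranged from 0 to 2 for LPS in GFP cells, 1 to 4 between the lines after LPS and 3 to 4 untreated. Sites higher by rank ranged from 7 to 11 in GFP cells, 6 to 12 in Nur77 cells and 0 to 3 between the lines after LPS, and lower ones there from 0 to 1. Reversed, with no call in either case, were the region 38602 bp from Ccl4 for LPS in GFP cells (0.14 and 0.971 points without untreated or LPS replicate 2 of GFP, over a range from -6.61 to 0.971), its site (0.66 and 1.48, from -6.33 to 1.48) and the inner Ccl9 site (0.953 without LPS-treated GFP replicate 1, from -15.6 to 0.953).

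Depth is unknown, since lists hold peaks and not reads, and the short lists limit which weak regions can be seen.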
